A study of Homo sapiens with 4 samples.

Results

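Transcripts of glucose uptake, glycolysis, lactate handling and the response to hypoxia-inducible factor 1 (HIF1) were followed in NK-92 cells, an established line of human natural killer (NK) cells kept in interleukin 2 (IL-2). The gene set has 45 members out of 61860 gene identifiers in the count table. The members are chosen by pathway, a rule that uses no expression value, but the list was drawn up with earlier results of these data known. All 45 members were matched by symbol and Ensembl identifier. Of these, 37 passed the filter on low counts and were tested among 17492 genes. The other 8, which are PFKFB2, ENO2, EGLN3, VEGFA, ADM, P4HA2, AK4 and CA9, are described by their counts.

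The 4 libraries cross 2 lines with 2 IL-2 times. The edited line, ΔOGT-ISS, had the intronic splicing silencer of OGT deleted with CRISPR-Cas9, which was designed to sustain OGT and raise O-GlcNAc on proteins, and WT was the unedited line. In each line, RNA of 1 library was extracted 48 h after IL-2 and that of another 24 h after it, and all cells were grown in serum-containing medium with IL-2. The treatment labels, which are followed here, give IL-2 to all 4 libraries, while the titles mention it for the 24 h libraries and not for the 48 h libraries. With a single edited line, a difference from WT cannot be assigned to the edit alone, and whether that line is 1 clone is not given in the sources used here. Separate cultures are not stated, and the p-values may therefore reflect technical spread alone.

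Glycolysis converts glucose to pyruvate, and cells that send the pyruvate on to lactate can run it without oxygen. HIF1 is a transcription factor whose alpha subunit is hydroxylated by oxygen-dependent enzymes and then destroyed through VHL. When oxygen is short, or when growth signals raise its synthesis, it binds short DNA elements and raises glucose transporters, glycolytic enzymes and genes that limit mitochondrial oxidation. Activated NK cells are known to increase glycolysis under cytokine stimulation.

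Counts totalled 11305599 in ΔOGT-ISS and 10889986 in WT at 48 h, and 28576566 in ΔOGT-ISS and 24809269 in WT at 24 h. The 45 genes took 1.45% (ΔOGT-ISS) and 1.61% (WT) of the counts at 48 h and 1.17% in each line at 24 h. The libraries differed more between times than between lines. The correlation of log2 CPM over 17492 genes was 0.943 for ΔOGT-ISS with WT at 48 h and 0.979 for the same lines at 24 h, but 0.911 for 48 h with 24 h in ΔOGT-ISS and 0.902 in WT. RN7SL1, the RNA of the signal recognition particle, took 0.394% (ΔOGT-ISS) and 0.425% (WT) of counts at 48 h and 2.76% (ΔOGT-ISS) and 4.39% (WT) at 24 h. The share of mitochondrial ribosomal RNA was 0.358% (ΔOGT-ISS) and 0.187% (WT) at 48 h, against 0.0162% (ΔOGT-ISS) and 0.0174% (WT) at 24 h. IL-2 time and these library differences cannot be told apart. OGT itself had 397 (ΔOGT-ISS) and 445 (WT) CPM at 48 h and 383 (ΔOGT-ISS) and 448 (WT) CPM at 24 h, a log2 difference of -0.19 ± 0.16 (SE) that did not pass the test (edgeR adjusted p = 0.862). All 14 NK markers listed were expressed above the filter, and CD3D, CD4, CD8A, MS4A1, CD14, LYZ and HBB stayed below 1 CPM in every library. Others of these lists were higher, with up to 1.68 CPM for CD3G, 1.22 CPM for CD8B and 1.78 CPM for CD79A, and 19.8 to 24 CPM for TRAC. Summed over their lists, T cell markers reached 318 to 548 CPM, mostly from CD3E and the TRBC genes, B cell markers 53.8 to 81.2 CPM, mostly from PAX5, erythroid markers at most 0.873 CPM, and fibroblast and epithelial markers at most 5.94 CPM.

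**Figure D1:**
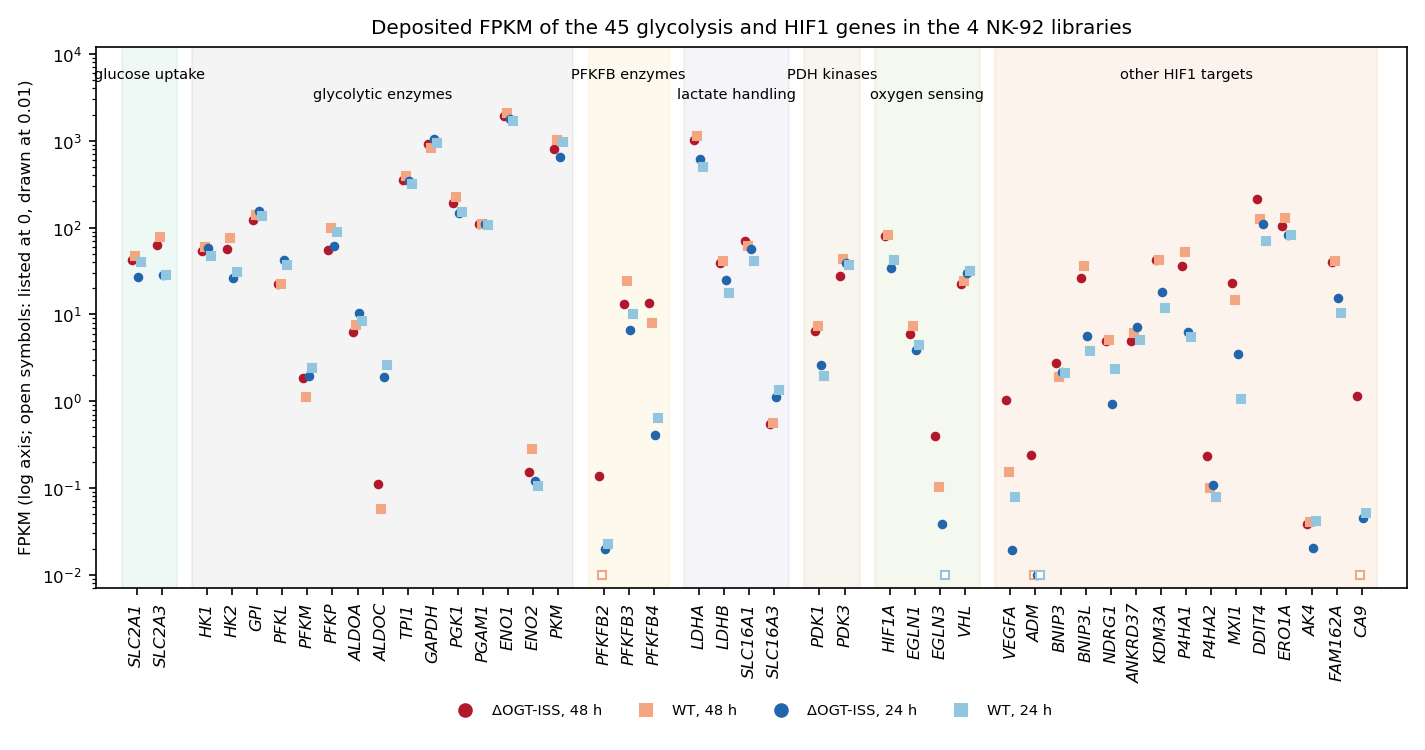
Deposited FPKM (log axis) of the 45 genes, 1 symbol for each of the 4 libraries, grouped by role, with open symbols for values listed at 0. ENO1, GAPDH, LDHA and PKM lie highest, while PFKM, ALDOA, ALDOC and SLC16A3 lie below the other glycolytic and lactate genes that were tested.

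Levels are first compared on the FPKM scale, which divides by transcript length. ENO1, the enolase of most tissues, was the most abundant member, at 1950 (ΔOGT-ISS) and 2100 (WT) FPKM at 48 h and 1780 (ΔOGT-ISS) and 1670 (WT) FPKM at 24 h. GAPDH, the dehydrogenase that makes glycolytic NADH, had 928 (ΔOGT-ISS) and 823 (WT) FPKM at 48 h and 1040 (ΔOGT-ISS) and 952 (WT) FPKM at 24 h. ENO2, the neuronal enolase, stayed between 0.105 and 0.28 FPKM, below ENO1 in all 4 libraries. Among the 3 phosphofructokinases, which catalyse the committed step, PFKP was highest in every library, at 54.9 (ΔOGT-ISS) and 99.5 (WT) FPKM at 48 h and 61.8 (ΔOGT-ISS) and 88.8 (WT) FPKM at 24 h. PFKL followed with 22.2 to 42.8 FPKM and the muscle form PFKM with 1.13 to 2.4 FPKM. Lactate dehydrogenase transcripts were mostly LDHA, at 500 to 1140 FPKM, against 17.4 to 41 FPKM for LDHB. The lactate transporter SLC16A1 had 41.3 to 70.2 FPKM, against 0.545 to 1.35 FPKM for SLC16A3, the transporter often raised in hypoxic cells. The pyruvate dehydrogenase kinase PDK3 had 27.7 to 43.4 FPKM and PDK1 had 1.96 to 7.34 FPKM, so PDK3 was above PDK1 in each library on this scale. That order rests on the listed transcript lengths, 1741 bases for PDK3 and 14072 bases for PDK1. In CPM, PDK1 was above PDK3 in both lines at 48 h and below it in both at 24 h. The aldolases were low, with 6.31 to 10.3 FPKM for ALDOA and 0.0571 to 2.61 FPKM for ALDOC. ALDOA shares 42.3% and LDHB 33.4% of exon bases, each with another protein-coding gene on its strand. How the authors counted such bases is not given in the sources used here, so both levels are uncertain. The levels of GAPDH, PGAM1 and BNIP3, which have 65, 13 and 45 named pseudogenes, are uncertain for the same reason.

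The larger contrast in these genes was between the IL-2 times. Of the 37 tested members, 16 were higher at 48 h than at 24 h and 2 were lower (edgeR quasi-likelihood test, adjusted p below 0.05), which is 43.2% and 5.41% of them. Over all 17492 genes tested, 10.9% were higher at 48 h and 15% lower. The median log2 difference, 48 h minus 24 h, was 0.47 over the members and -0.07 over all genes tested. The members PFKFB4, MXI1, P4HA1, BNIP3L, NDRG1, FAM162A, PDK1, KDM3A, SLC2A3, HK2, PFKFB3, HIF1A, LDHA, LDHB, DDIT4 and EGLN1 rose, and PFKL and ALDOC fell. In 23 members both 48 h libraries lay above both 24 h libraries, in 7 both lay below, and in 7 the times overlapped, where 30.1% of all tested genes lay above and 34.8% below. Without the ΔOGT-ISS 24 h library 10 members passed the test, and without the WT 24 h library 11 passed, in fits to 3 libraries that called 7.18% and 6.04% of all genes in either direction, against 25.9% with all 4 libraries. As these are bulk samples, fewer cells of a type and less RNA per cell cannot be told apart.

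**Figure D2:**
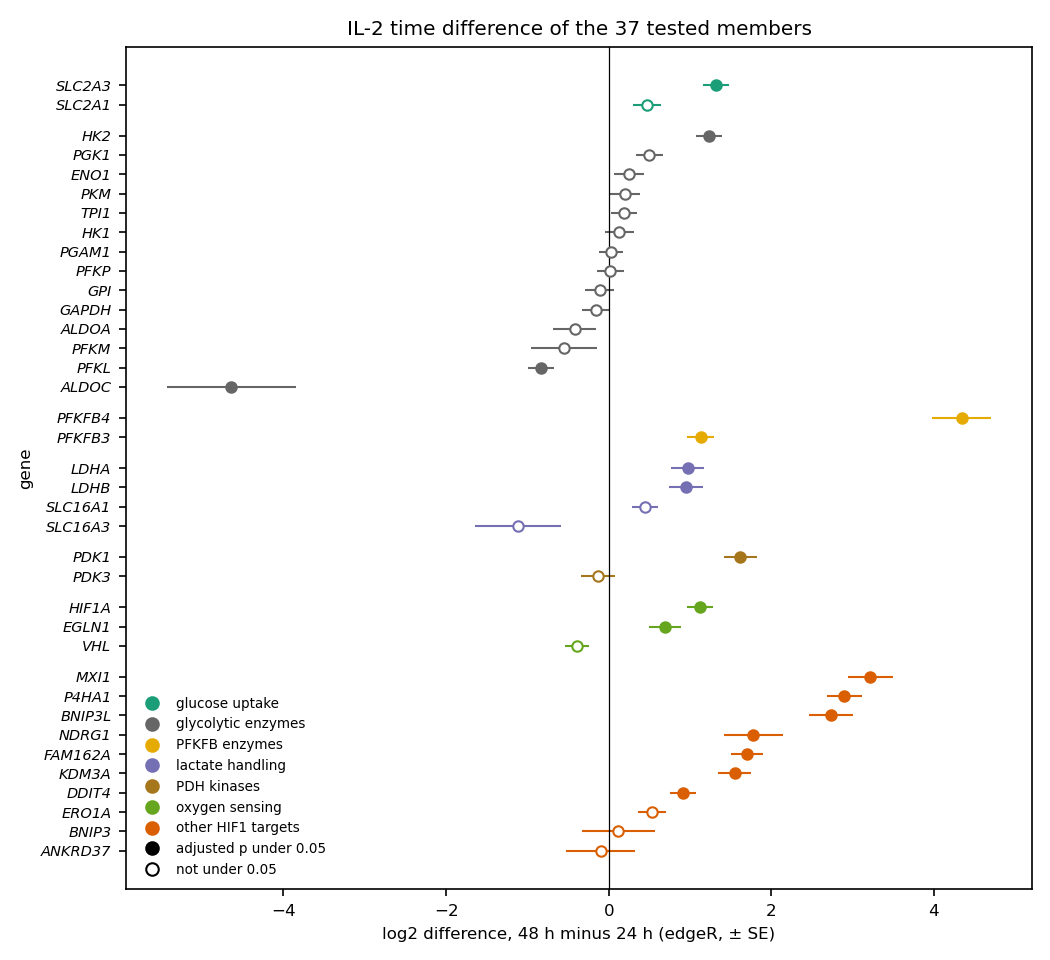
Log2 difference of each of the 37 tested members, 48 h minus 24 h, from edgeR over all 4 libraries with bars of 1 SE, ordered by role and filled where the adjusted p was below 0.05. The filled points to the right belong mostly to the other HIF1 targets, both PFKFB enzymes, HIF1A and EGLN1, whereas most glycolytic enzymes sit near 0.

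Other properties of the libraries moved with time. GC content correlated with the 48 h minus 24 h difference across 16751 genes (Spearman rho = -0.47, a description across genes, which are not independent), and the tested members had a median GC content of 0.514 against 0.479 over all genes with a value. With library-specific offsets for GC content and transcript length, 19 members passed, 17 higher and 2 lower at 48 h, where 15.7% of all genes passed in either direction. PFKL then had a log2 difference of 0.21 (edgeR adjusted p = 0.431) and EGLN1 one of 0.36 (adjusted p = 0.239), so neither call held, while the calls of PDK1 (0.91 in place of 1.62), HIF1A (0.65 in place of 1.12) and DDIT4 (1.48 in place of 0.91) held. Over all 15 alternative settings the adjusted p ran between 1.31e-05 and 0.431 for PFKL, between 0.018 and 0.467 for EGLN1, and between 1.48e-09 and 0.0355 for PDK1. Among myeloid markers, the summed level of the 8 listed was 610 (ΔOGT-ISS) and 824 (WT) CPM at 48 h and 47.6 (ΔOGT-ISS) and 315 (WT) CPM at 24 h, nearly all of it S100A9. S100A8 and S100A9 were higher at 48 h (edgeR adjusted p = 0.017 and 0.00921), while CD14, LYZ and CD68 were at or below 0.283 CPM throughout and MPO at or below 0.699 CPM. CSF1R and ITGAM, at 3.51 to 9.43 CPM and 4.02 to 8.58 CPM, did not pass (log2 differences of 0.42 and 0.48). Of the 14 NK markers, all tested, 6 (42.9%) fell at 48 h, against 15% of all genes tested. Those that fell were CD7 (-4.07), TYROBP (-1.76), TBX21 (-1.02), IL2RB (-0.98), NCAM1 (-0.81) and EOMES (-0.66). GZMA alone rose (0.77, or 7.14% of the list, against 10.9% of all genes tested), and the other 7 did not pass. The median was -0.62 over the list and -0.07 over all genes tested. Summed, the NK markers had 3650 (ΔOGT-ISS) and 4480 (WT) CPM at 48 h and 3850 (ΔOGT-ISS) and 6140 (WT) CPM at 24 h. The part of the myeloid and NK markers in the members' differences was not tested.

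The regions upstream of 6 members are printed. PFKFB4, MXI1 and P4HA1 had the largest rises at 48 h, and ALDOC had the largest fall. FAM162A and LDHA had the most matches to the HIF1 binding core among the members that rose and have a promoter listed. In that count CACGTG is a match on each strand. Each region is the stretch of 250 bases before the RefSeq gene start on GRCh38.p14, 5′ to 3′ on the gene's strand. Capitals mark the core of the hypoxia response element, ACGTG or GCGTG, or its reverse complement, CACGT or CACGC. Capitals can overlap, as in CACGTG, which holds the core on both strands.
PFKFB4 (chr3:48556804-48557053, minus strand): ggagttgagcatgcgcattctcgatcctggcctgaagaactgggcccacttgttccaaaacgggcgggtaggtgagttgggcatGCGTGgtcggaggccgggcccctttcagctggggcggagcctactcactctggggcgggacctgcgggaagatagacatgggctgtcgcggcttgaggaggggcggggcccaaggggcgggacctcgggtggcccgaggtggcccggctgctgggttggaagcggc
MXI1 (chr10:110207355-110207604, plus strand): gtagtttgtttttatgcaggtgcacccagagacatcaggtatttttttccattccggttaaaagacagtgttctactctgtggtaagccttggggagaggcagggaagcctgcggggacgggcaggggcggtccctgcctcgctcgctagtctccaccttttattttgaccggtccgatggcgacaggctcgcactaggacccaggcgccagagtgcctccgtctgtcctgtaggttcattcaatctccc
P4HA1 (chr10:73096867-73097116, minus strand): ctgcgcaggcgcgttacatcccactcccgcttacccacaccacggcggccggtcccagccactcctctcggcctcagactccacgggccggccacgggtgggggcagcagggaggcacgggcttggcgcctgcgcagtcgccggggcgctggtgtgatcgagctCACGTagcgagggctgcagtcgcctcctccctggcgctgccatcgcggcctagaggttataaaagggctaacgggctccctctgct
FAM162A (chr3:122383932-122384181, plus strand): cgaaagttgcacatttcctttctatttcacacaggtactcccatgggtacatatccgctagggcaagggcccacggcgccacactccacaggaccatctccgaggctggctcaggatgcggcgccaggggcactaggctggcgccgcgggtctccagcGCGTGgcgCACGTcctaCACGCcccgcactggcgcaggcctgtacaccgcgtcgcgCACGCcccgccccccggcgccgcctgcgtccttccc
LDHA (chr11:18394313-18394562, plus strand): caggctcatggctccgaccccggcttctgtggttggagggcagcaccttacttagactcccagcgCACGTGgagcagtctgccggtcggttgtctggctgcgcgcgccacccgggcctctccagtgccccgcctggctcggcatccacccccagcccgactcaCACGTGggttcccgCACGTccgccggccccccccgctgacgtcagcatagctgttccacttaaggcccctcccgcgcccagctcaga
ALDOC (chr17:28576896-28577145, minus strand): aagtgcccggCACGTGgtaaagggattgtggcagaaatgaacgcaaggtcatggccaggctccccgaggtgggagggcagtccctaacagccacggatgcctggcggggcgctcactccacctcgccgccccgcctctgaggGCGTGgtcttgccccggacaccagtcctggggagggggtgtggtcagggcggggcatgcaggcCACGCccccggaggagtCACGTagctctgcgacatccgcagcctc

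PFKFB4 and P4HA1 each have 1 match, MXI1 has 0, FAM162A has 4, and LDHA and ALDOC have 5 each, with CACGTG counted on each strand. A table of RefSeq promoters held 38 of the 45 members, and 25 of them (65.8%) had the core on either strand in this window. The share was 56.2% over 10877 tested genes with a promoter in the table and 43.2% over all 35114 promoters. Among members that rose at 48 h, 10 of 13 (76.9%) had the core, against 9 of 17 (52.9%) of those tested and not called, and both members that fell had it. The core contains CG, and the median GC content of these windows was 68.6% in members, 64% in tested genes and 58% in all promoters. CACGTG, which is also the element bound by MYC and related factors, stood in 6 member windows (15.8%) and in 8.64% of the windows of tested genes. These are matches of letters in 1 window per gene and are not evidence of binding.

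Glucose enters through the transporters SLC2A1 and SLC2A3. SLC2A3, a high-affinity transporter known as GLUT3, had 240 (ΔOGT-ISS) and 303 (WT) CPM at 48 h, against 106 (ΔOGT-ISS) and 110 (WT) CPM at 24 h. Both 48 h libraries were above both 24 h libraries, and the transcript rose by 1.32 ± 0.16 on the log2 scale (SE, 2 libraries per time), or 2.49-fold (edgeR adjusted p = 0.0016). SLC2A1, known as GLUT1, had 140 (ΔOGT-ISS) and 165 (WT) CPM at 48 h, against 88.3 (ΔOGT-ISS) and 135 (WT) CPM at 24 h. Its values were also highest at 48 h, but the log2 difference of 0.47 ± 0.17 did not pass the test (edgeR adjusted p = 0.0739). With the GC and length offsets it was 0.79 (adjusted p = 0.0156, with a range of 0.0156 to 0.892 over the alternatives).

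Most enzymes of the glycolytic chain itself, like most genes tested, did not pass the test between times. Of 14 tested, 1 rose (HK2, 7.14%), 2 fell (PFKL and ALDOC, 14.3%) and 11 did not pass, with a median log2 difference of 0.02. Over all genes tested, 10.9% rose, 15% fell and the median was -0.07. HK2, the inducible hexokinase that traps glucose as a phosphate ester, had 316 (ΔOGT-ISS) and 434 (WT) CPM at 48 h, against 143 (ΔOGT-ISS) and 175 (WT) CPM at 24 h. The 2 times did not overlap, and the difference of 1.23 ± 0.16, or 2.34-fold, passed (edgeR adjusted p = 0.0019), although not without the ΔOGT-ISS 24 h library (1.03, adjusted p = 0.0755, the highest over the alternatives). HK1, the constitutive hexokinase, ran from 46.5 to 59 FPKM over the libraries. On that scale HK2 had 56.9 (ΔOGT-ISS) and 75.1 (WT) FPKM at 48 h, about the level of HK1 or above, and 25.9 (ΔOGT-ISS) and 30.9 (WT) FPKM at 24 h, below HK1 in both lines.

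ALDOC, the brain-type aldolase, had 2 (ΔOGT-ISS) and 1 (WT) counts at 48 h, against 87 (ΔOGT-ISS) and 104 (WT) counts at 24 h. The ratio of 48 h over 24 h was 0.0584 in ΔOGT-ISS (95% counting interval 0.00696 to 0.217) and 0.0224 in WT (0.000562 to 0.128). The fall passed the test (edgeR adjusted p = 0.00515), although not without the WT 24 h library. It also did not pass in limma on log2(FPKM + 0.1) with all 4 libraries (-3.68, adjusted p = 0.0534). ALDOC passed the filter on low counts through its 24 h libraries alone, so a difference in that direction was favoured by the filter. PFKL, the liver-type phosphofructokinase, had 63.8 (ΔOGT-ISS) and 66.2 (WT) CPM at 48 h, against 122 (ΔOGT-ISS) and 109 (WT) CPM at 24 h, which was a fall of 0.83 ± 0.16 on the log2 scale in edgeR (edgeR adjusted p = 0.0087). That call was lost without the ΔOGT-ISS 24 h library (-0.82, adjusted p = 0.104) and without the WT 24 h library (-0.98, adjusted p = 0.0612), and with the GC and length offsets the sign turned, as given above.

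The remaining named enzymes showed no called time difference. PFKP had 142 (ΔOGT-ISS) and 268 (WT) CPM at 48 h, against 159 (ΔOGT-ISS) and 234 (WT) CPM at 24 h, with a log2 difference of 0.02 ± 0.17. PFKM had 5.68 (ΔOGT-ISS) and 3.58 (WT) CPM at 48 h, against 5.95 (ΔOGT-ISS) and 7.45 (WT) CPM at 24 h, a difference of -0.55 ± 0.40 (edgeR adjusted p = 0.351). PGK1, which makes the first ATP of the pathway, had 909 (ΔOGT-ISS) and 1100 (WT) CPM at 48 h, against 688 (ΔOGT-ISS) and 730 (WT) CPM at 24 h. Its 48 h libraries were both higher, and the difference of 0.50 ± 0.17 missed the threshold (edgeR adjusted p = 0.0625). GAPDH had 1180 (ΔOGT-ISS) and 1090 (WT) CPM at 48 h, against 1310 (ΔOGT-ISS) and 1230 (WT) CPM at 24 h, a difference of -0.16 ± 0.17 that became 0.42 with the GC and length offsets. PKM, pyruvate kinase, had 1800 (ΔOGT-ISS) and 2400 (WT) CPM at 48 h, against 1450 (ΔOGT-ISS) and 2250 (WT) CPM at 24 h, a difference of 0.20 ± 0.18. For PFKP, PKM and GAPDH the time difference was thus about as large as its standard error or smaller. HK1, GPI, ALDOA, TPI1, PGAM1 and ENO1 ranged from -0.42 (ALDOA) to 0.25 (ENO1).

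The PFKFB enzymes make and remove the allosteric activator of phosphofructokinase, and both tested members rose. PFKFB4 (ENSG00000114268), which showed the largest rise of the set, had 529 (ΔOGT-ISS) and 307 (WT) counts at 48 h, against 41 (ΔOGT-ISS) and 56 (WT) counts at 24 h in the deeper libraries. In CPM that was 46.2 (ΔOGT-ISS) and 28.9 (WT) at 48 h, against 1.41 (ΔOGT-ISS) and 2.27 (WT) at 24 h. The times were far apart in both lines, and the log2 difference was 4.34 ± 0.36, or 20.2-fold (edgeR adjusted p = 0.000482). The 48 h over 24 h ratio was 32.8 in ΔOGT-ISS (95% counting interval 23.8 to 46.2) and 12.8 in WT (9.58 to 17.3). PFKFB3, the isoenzyme with the highest kinase activity, had 57.3 (ΔOGT-ISS) and 112 (WT) CPM at 48 h, against 28.9 (ΔOGT-ISS) and 46.1 (WT) CPM at 24 h. Within each line the 48 h library was higher, and the difference was 1.13 ± 0.17, or 2.19-fold (edgeR adjusted p = 0.00322). Leaving out a library ended that call for WT at 48 h (0.52, adjusted p = 0.261), ΔOGT-ISS at 24 h (0.80, adjusted p = 0.31) and WT at 24 h (1.48, adjusted p = 0.0738), and over all alternatives the adjusted p ran between 1.37e-05 and 0.31. PFKFB2 had 11 counts in ΔOGT-ISS and 0 in WT at 48 h, against 4 counts in each line at 24 h.

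**Figure D3:**
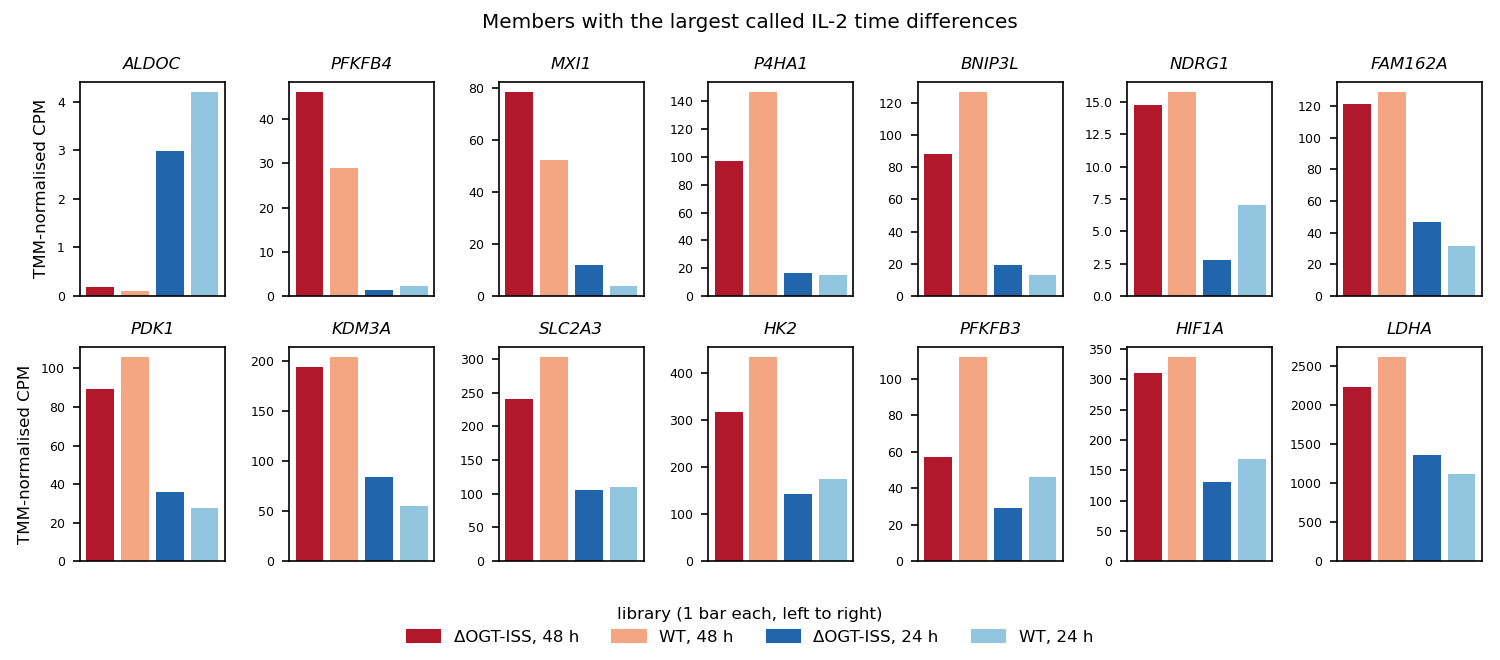
TMM-normalised CPM (linear axes from 0) of the 14 members with the largest called time differences, 1 bar per library. ALDOC is high in the 24 h libraries and the other 13 genes are high in the 48 h libraries, with PFKFB4, MXI1, P4HA1 and BNIP3L showing the widest gaps.

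In lactate handling, both lactate dehydrogenase genes rose at 48 h and the transporters did not pass the test. LDHA, whose enzyme favours making lactate from pyruvate, had 2230 (ΔOGT-ISS) and 2620 (WT) CPM at 48 h, against 1360 (ΔOGT-ISS) and 1120 (WT) CPM at 24 h. The times were separate in both lines, and the transcript rose by 0.97 ± 0.20, or 1.95-fold (edgeR adjusted p = 0.0105). That call was lost in 4 of 15 alternatives, among them the fits without the WT 48 h library (0.76) and without the WT 24 h library (0.76). Over the alternatives fitted to all 4 libraries the adjusted p ran between 6.04e-06 and 0.0658. LDHB, the heart-type subunit, had 49.7 (ΔOGT-ISS) and 54.9 (WT) CPM at 48 h, against 32.1 (ΔOGT-ISS) and 22.7 (WT) CPM at 24 h. It rose by 0.95 ± 0.21 (edgeR adjusted p = 0.0135) and did not pass in any fit that left out a library (0.64 to 1.13, adjusted p = 0.0549 to 0.276). LDHB shares 33.4% of its exon bases with another protein-coding gene on its strand, which had at most 2 counts. As the counting of shared bases is not given, the level of LDHB is uncertain. SLC16A1, the transporter MCT1, showed a difference of 0.45 ± 0.16 (edgeR adjusted p = 0.0759). SLC16A3, the transporter MCT4, had 1.4 (ΔOGT-ISS) and 1.51 (WT) CPM at 48 h, against 2.85 (ΔOGT-ISS) and 3.52 (WT) CPM at 24 h, so its values were lower at 48 h, by -1.12 ± 0.53 (edgeR adjusted p = 0.16), or by -0.20 with the GC and length offsets (adjusted p = 0.83, the highest over the alternatives).

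PDK1 and PDK3 phosphorylate and restrain pyruvate dehydrogenase, the entry of pyruvate into the mitochondrial cycle. PDK1, a HIF1 target, had 89.5 (ΔOGT-ISS) and 106 (WT) CPM at 48 h, against 36.1 (ΔOGT-ISS) and 27.6 (WT) CPM at 24 h. The gap was present in both lines, and PDK1 rose by 1.62 ± 0.20, or 3.08-fold (edgeR adjusted p = 0.00155), with each library left out in turn keeping the call. PDK3 had 47.6 (ΔOGT-ISS) and 77.5 (WT) CPM at 48 h, against 67.1 (ΔOGT-ISS) and 65.6 (WT) CPM at 24 h. Its times overlapped, with a difference of -0.13 ± 0.21 (edgeR adjusted p = 0.698).

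Among the oxygen sensing genes, HIF1A and EGLN1 rose and VHL did not pass the test. HIF1A, the regulated subunit of HIF1, had 311 (ΔOGT-ISS) and 337 (WT) CPM at 48 h, against 131 (ΔOGT-ISS) and 168 (WT) CPM at 24 h. In each line the 48 h library was the higher, with ratios of 2.37 in ΔOGT-ISS (95% counting interval 2.27 to 2.48) and 2.00 in WT (1.91 to 2.09), and the difference was 1.12 ± 0.16 (edgeR adjusted p = 0.00274). Without the ΔOGT-ISS 24 h library it was 0.87 (adjusted p = 0.0856, the highest over the alternatives). HIF1 is regulated largely through the stability of this protein, which RNA does not measure. EGLN1, the main HIF prolyl hydroxylase and itself a HIF1 target, had 25.4 (ΔOGT-ISS) and 32.8 (WT) CPM at 48 h, against 16.7 (ΔOGT-ISS) and 19.3 (WT) CPM at 24 h. The times did not overlap, and the difference of 0.69 ± 0.20 was the smallest that passed (edgeR adjusted p = 0.0383). It failed in all 4 fits that left out a library (0.41 to 0.87, adjusted p = 0.0542 to 0.467). EGLN3, a hydroxylase strongly raised by hypoxia in other cells, had 12 (ΔOGT-ISS) and 3 (WT) counts at 48 h, against 3 (ΔOGT-ISS) and 0 (WT) counts at 24 h. VHL, the recognition subunit of the ubiquitin ligase that removes HIF1 alpha, had 98.3 (ΔOGT-ISS) and 109 (WT) CPM at 48 h, against 130 (ΔOGT-ISS) and 141 (WT) CPM at 24 h. Its 48 h values were the lower ones, with a difference of -0.39 ± 0.15 (edgeR adjusted p = 0.103).

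Of the 10 other HIF1 targets that were tested, 7 (70%) rose and none fell, with a median difference of 1.63. The shares over all genes tested were 10.9% and 15%, with a median of -0.07. MXI1 (ENSG00000119950), a repressor that opposes MYC, had 78.5 (ΔOGT-ISS) and 52.1 (WT) CPM at 48 h, against 12 (ΔOGT-ISS) and 3.72 (WT) CPM at 24 h. MXI1 rose by 3.22 ± 0.28, or 9.3-fold (edgeR adjusted p = 0.000546). P4HA1 (ENSG00000122884), a catalytic subunit of collagen prolyl hydroxylase, had 97.4 (ΔOGT-ISS) and 147 (WT) CPM at 48 h, against 16.8 (ΔOGT-ISS) and 15.3 (WT) CPM at 24 h. The 24 h values of the lines were close and the rise was 2.90 ± 0.22, or 7.48-fold (edgeR adjusted p = 0.000356). BNIP3L, a receptor that marks mitochondria for autophagy and is also called NIX, had 88.1 (ΔOGT-ISS) and 127 (WT) CPM at 48 h, against 19.3 (ΔOGT-ISS) and 13.2 (WT) CPM at 24 h. It rose by 2.73 ± 0.27, or 6.62-fold (edgeR adjusted p = 0.000818). These 3 calls held with each library left out in turn.

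BNIP3, the close relative of BNIP3L and also a mitophagy receptor, was counted far lower. BNIP3 had 4.19 (ΔOGT-ISS) and 3.02 (WT) CPM at 48 h, against 3.27 (ΔOGT-ISS) and 3.32 (WT) CPM at 24 h. Its times overlapped, with a difference of 0.12 ± 0.45 (edgeR adjusted p = 0.877), and its window upstream of the gene start held 6 matches to the core. FAM162A, a mitochondrial protein linked to cell death in hypoxia, had 121 (ΔOGT-ISS) and 129 (WT) CPM at 48 h, against 46.7 (ΔOGT-ISS) and 31.5 (WT) CPM at 24 h, a rise of 1.70 ± 0.20 (edgeR adjusted p = 0.00136). KDM3A, a histone demethylase, had 194 (ΔOGT-ISS) and 204 (WT) CPM at 48 h, against 83.7 (ΔOGT-ISS) and 54.8 (WT) CPM at 24 h, a rise of 1.55 ± 0.20 (edgeR adjusted p = 0.0019). For both genes the 48 h values of the lines were close, and the 24 h value was the lower in WT. NDRG1, a protein induced by several stresses, had 14.8 (ΔOGT-ISS) and 15.8 (WT) CPM at 48 h, against 2.75 (ΔOGT-ISS) and 7.04 (WT) CPM at 24 h. NDRG1 rose by 1.78 ± 0.36 (edgeR adjusted p = 0.0107), a call that was lost without the ΔOGT-ISS 48 h library (1.70, adjusted p = 0.0904), the WT 48 h library (1.51, adjusted p = 0.108) or the ΔOGT-ISS 24 h library (1.04, adjusted p = 0.191), in a range of 2.7e-05 to 0.191 over the alternatives. DDIT4, an inhibitor of the growth kinase complex mTORC1, had 369 (ΔOGT-ISS) and 223 (WT) CPM at 48 h, against 187 (ΔOGT-ISS) and 123 (WT) CPM at 24 h. It rose by 0.91 ± 0.16 (edgeR adjusted p = 0.00522), and the fits without ΔOGT-ISS at 48 h (0.52, adjusted p = 0.22), without ΔOGT-ISS at 24 h (1.18, adjusted p = 0.0762) and without WT at 24 h (0.59, adjusted p = 0.363) did not call it, in a range of 8.5e-06 to 0.363 over the alternatives. ERO1A, an oxidase of the endoplasmic reticulum, had 529 (ΔOGT-ISS) and 682 (WT) CPM at 48 h, against 411 (ΔOGT-ISS) and 421 (WT) CPM at 24 h, a difference of 0.53 ± 0.17 just short of the threshold (edgeR adjusted p = 0.0542). ANKRD37 had a difference of -0.10 ± 0.42, and 35.2% of its exon bases lie opposite UFSP2, so its counts are uncertain.

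The HIF1 targets VEGFA, CA9 and ADM were barely counted, unlike LDHA, HK2 and SLC2A1, whose values are given above. VEGFA, an angiogenic growth factor, had 42 counts in ΔOGT-ISS and 6 in WT at 48 h, against 2 in ΔOGT-ISS and 7 in WT at 24 h. CA9, a carbonic anhydrase of the cell surface, had 20 counts in ΔOGT-ISS and 0 in WT at 48 h, against 2 counts in each line at 24 h, and 38.5% of its exon bases lie opposite ARHGEF39. ADM, a vasodilator peptide, had 4 counts in ΔOGT-ISS at 48 h and 0 in the other 3 libraries. For VEGFA, CA9, ADM, EGLN3 and PFKFB2 the ΔOGT-ISS 48 h library thus held the largest count. The ratio of ΔOGT-ISS over WT at 48 h was 6.48 for VEGFA (95% counting interval 2.74 to 18.7). For CA9 the ratio was 6.18 with 3 counts in place of the 0 in WT, and the lower end of its interval was 4.57. The same library also held the largest sum over the 7784 protein-coding genes below the filter, at 2291 CPM, against 927.6 CPM in WT at 48 h, and 565.9 (ΔOGT-ISS) and 792.8 (WT) CPM at 24 h. The part of this in the counts of the 5 genes was not tested. P4HA2, ENO2 and AK4 had between 3 and 14 counts in every library.

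Other genes of the pathway were listed apart from the members. Of 45 further HIF regulators and targets, 33 were tested. Of these, 9 (27.3%) rose at 48 h and 4 (12.1%) fell, with a median difference of 0.19. Over all genes tested, 10.9% rose and 15% fell. NAMPT, the rate-limiting enzyme of NAD salvage, had 824 (ΔOGT-ISS) and 848 (WT) CPM at 48 h, against 162 (ΔOGT-ISS) and 189 (WT) CPM at 24 h, a rise of 2.26 ± 0.17 (edgeR adjusted p = 0.000336). Others that rose were HILPDA (1.76), INSIG2 (1.62), GBE1 (1.29), WSB1 (1.27), CITED2 (1.08), ELOC (0.78) and RIOK3 (0.75). TXNIP, an inhibitor of glucose uptake, fell to 20.7 (ΔOGT-ISS) and 23.9 (WT) CPM at 48 h, against 58.3 (ΔOGT-ISS) and 155 (WT) CPM at 24 h, a difference of -2.10 ± 0.28 (edgeR adjusted p = 0.00215). The other genes that fell were EGLN2 (-1.39), HIF1AN (-0.91), which encodes the asparaginyl hydroxylase of HIF1 alpha, and PLOD1 (-0.85). The partner subunit ARNT did not pass (-0.31 ± 0.17, edgeR adjusted p = 0.206), and EPAS1, which encodes HIF2 alpha, had at most 12 counts in any library.

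Of 45 listed genes of pyruvate, pentose phosphate and related glucose metabolism, 31 were tested. At 48 h, 6 (19.4%) rose and 6 (19.4%) fell, with a median difference of 0.22, against 10.9% and 15% of all genes tested. DLD (0.93), PGD (0.73), PDHX (0.72), MPC1 (0.69), PDHB (0.63) and RPIA (0.62) rose, of which DLD, PDHX and PDHB encode parts of the pyruvate dehydrogenase complex. Among those that fell were LDHD (-2.85), SLC2A8 (-1.70), PGLS (-0.90), BSG (-0.76), the chaperone of lactate transporters, and SLC16A7 (-0.61). LDHD had 3 counts in each line at 48 h. It passed the filter on low counts through its 24 h libraries alone, so a fall was favoured by the filter. Of 20 listed regulators in the mTOR, AMPK and MYC pathways, 19 were tested, of which 2 (10.5%) rose, SESN2 (2.08) and MYC (0.61), and 8 (42.1%) fell. Those 8 were TSC2 (-1.21), STK11 (-1.05), AKT1 (-1.01), AKT2 (-1.01), PIK3CD (-0.90), SREBF2 (-0.90), IRF4 (-0.80) and PRKAB1 (-0.73).

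Between the lines, none of the 37 members passed the test. Over all genes tested, 0.463% passed. At an unadjusted p below 0.05 there were 7 members (HK2, PFKP, PFKFB3, PKM, MXI1, DDIT4 and SLC2A1), where 9.08% of all genes were below it, and the adjusted p ran from 0.11 to 0.998 (edgeR). The DESeq2 Wald test called 4 members, MXI1 and DDIT4 higher and PFKFB3 and PFKP lower in ΔOGT-ISS, and edgeR without the filter on low counts called 3 of those 4, all but DDIT4. Over all genes those settings called 1.73% and 1.25%. The median log2 difference, ΔOGT-ISS minus WT, was -0.05 over the members and 0.02 over all genes tested. ΔOGT-ISS was higher at both times in 4 members and lower at both in 13, and the sign differed between times in 20, where 29.4% and 27.4% of all tested genes were higher and lower at both. Of the 14 NK markers, 3 were lower in ΔOGT-ISS (CD2, -2.15, TYROBP, -2.74, and GZMA, -1.26), none was higher, and their part in the members' line differences was not tested.

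MXI1 had the largest line difference of the set. Its ratio of ΔOGT-ISS over WT was 1.51 at 48 h (95% counting interval 1.35 to 1.68) and 3.23 at 24 h (2.56 to 4.11), and the log2 difference was 1.09 ± 0.27 (edgeR adjusted p = 0.171; DESeq2 adjusted p = 0.0368). DDIT4 was likewise higher in ΔOGT-ISS at both times, with ratios of 1.66 at 48 h (1.57 to 1.74) and 1.52 at 24 h (1.45 to 1.59), and a difference of 0.67 ± 0.16 (edgeR adjusted p = 0.154; DESeq2 adjusted p = 0.0328). PFKFB3 had ratios of 0.512 at 48 h (0.465 to 0.564) and 0.627 at 24 h (0.573 to 0.686), and a difference of -0.82 ± 0.17 (edgeR adjusted p = 0.11; DESeq2 adjusted p = 0.0351). PFKP had ratios of 0.53 at 48 h (0.498 to 0.564) and 0.681 at 24 h (0.655 to 0.708), and a difference of -0.73 ± 0.17 (edgeR adjusted p = 0.145; DESeq2 adjusted p = 0.0194). Over all alternatives the adjusted p ran between 0.0015 and 1 for MXI1, 0.00402 and 1 for DDIT4, 0.00478 and 1 for PFKFB3, and 0.00539 and 1 for PFKP. These 4 genes were on the same side at both times, with intervals that cover counting error only.

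Position was shared by some of the lower values. PFKP (chr10:3066333-3137712) and PFKFB3 (chr10:6144934-6254644, GENCODE release 29 on GRCh38) lie on the short arm of chromosome 10, and the 20 tested protein-coding genes on either side had median line differences of -0.37 around PFKP and -0.44 around PFKFB3. With that local median removed the differences were -0.37 and -0.38. PKM (chr15:72199029-72231822) had ratios of 0.752 at 48 h (0.738 to 0.766) and 0.643 at 24 h (0.635 to 0.652), and a difference of -0.52 ± 0.18 (edgeR adjusted p = 0.375). Its neighbours had a median of -0.55, so that 0.02 was left. Around MXI1 and DDIT4 the local medians were -0.01 and 0.06. NDRG1 differed by -0.71 ± 0.36 (edgeR adjusted p = 0.658), with a ratio near 1 at 48 h (0.932, interval 0.748 to 1.16) and one of 0.39 (0.296 to 0.512) at 24 h.

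**Figure D4:**
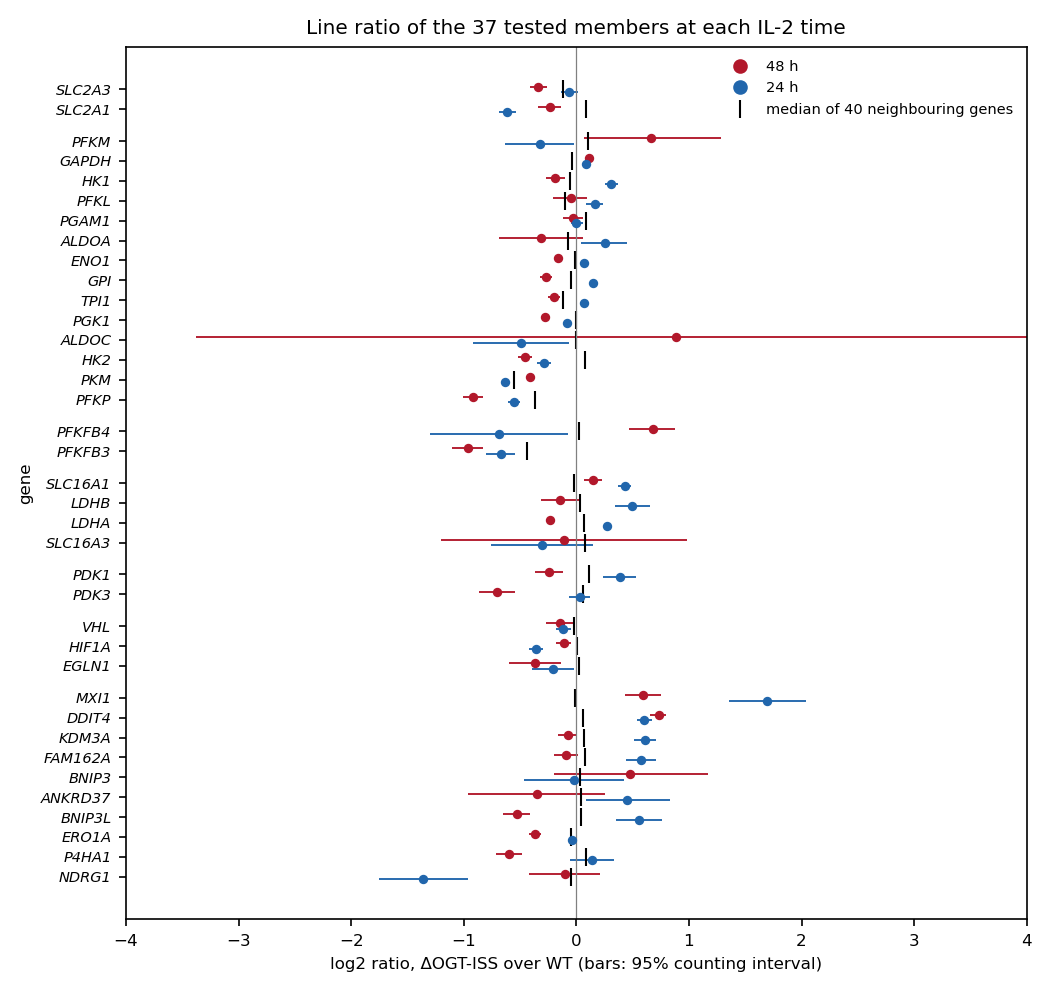
Log2 ratio of ΔOGT-ISS over WT for the 37 tested members at 48 h (red) and 24 h (blue), with 95% counting intervals between single libraries and a black tick for the median line difference of the 20 tested genes on either side. The ticks of PFKP, PFKFB3 and PKM lie well below 0, and the upper end of the ALDOC interval at 48 h lies beyond the axis.

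The oxygen sensing genes and the remaining named members did not pass between the lines. HIF1A differed by -0.24 ± 0.16, VHL by -0.13 ± 0.15, EGLN1 by -0.29 ± 0.20, SLC2A1 by -0.43 ± 0.17, HK2 by -0.37 ± 0.16, BNIP3 by 0.21 ± 0.45 and GAPDH by 0.10 ± 0.17, with edgeR adjusted p between 0.478 and 0.963. LDHA (0.02 ± 0.19) and PDK1 (0.07 ± 0.20) were near 0 over both times. Each was lower in ΔOGT-ISS at 48 h and higher at 24 h, with ratios of 0.851 and 1.21 for LDHA and of 0.845 and 1.31 for PDK1. In the further lists, PLOD2, a collagen lysyl hydroxylase, was the HIF gene that differed between lines (edgeR adjusted p = 0.00632). It had 186 counts in ΔOGT-ISS and 0 in WT at 48 h, and 425 in ΔOGT-ISS and 4 in WT at 24 h. PLOD2 passed the filter on low counts through its ΔOGT-ISS libraries alone, so a difference in that direction was favoured by the filter. IRF4, a transcription factor of activated lymphocytes, was higher in ΔOGT-ISS, at 91.1 CPM against 41.6 CPM in WT at 48 h and 164 CPM against 69.8 CPM in WT at 24 h, a difference of 1.19 ± 0.16 (edgeR adjusted p = 0.0313). None of the 31 genes of the glucose and pyruvate list passed between the lines, and 3 had an unadjusted p below 0.05 (edgeR). The shares over all genes tested were 0.463% and 9.08%.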

How the data were processed

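Per the labels' protocols, RiboCop removed ribosomal RNA and CORALL RNA-seq V2 made the libraries. The authors deposited raw counts, whole numbers of reads per Ensembl gene that were not normalized. The submitters' processing notes name featureCounts 2.0.1, HISAT2 2.2.0, SAMtools 1.15.1 and build hg38, without roles. Not given in the sources used here are the strand setting, the annotation used and how the pipeline treated multi-mapping reads and molecular identifiers, so overlapping genes and near-identical copies are uncertain. The authors also deposited FPKM values, which are counts divided by a transcript length and by the table's count total.

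The test was the edgeR 4.0.16 quasi-likelihood F test (R 4.3.3) with TMM normalization, filterByExpr with a minimum count of 10, fitted to all 4 libraries with line and IL-2 time as terms. The spread is estimated with 1 residual degree of freedom, and a line effect that differs between times would enter it. Two-sided p-values were adjusted by Benjamini-Hochberg over all 17492 genes, with a threshold of 0.05. An SE is the log2 difference divided by the square root of F. CPM values are TMM-normalised. Ratios between single libraries carry exact conditional binomial 95% intervals, which, like the limit of 3 counts for a count of 0, cover counting error only. Positions came from GENCODE 29 on GRCh38 and promoters from RefSeq on GRCh38.p14. The scripts were tested on simulated data.

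The members and further lists were chosen with earlier results of these data known. The naming rule took up to 14 called members by size and the next 5 not called in each comparison, plus 15 fixed members, and in each further list those past the test. A few genes of those lists are not reported here. LDHB and others outside it were named after their values were seen. Alternatives were DESeq2 1.42.0 size factors, upper-quartile factors, library size alone, no filter, the DESeq2 Wald test, limma 3.58.1 on log2(FPKM + 0.1) with and without the filter and on log2(FPKM + 1), only the term compared, each library left out, thinned 24 h libraries, removal of the local median line difference, and GC and length offsets (mgcv 1.9.3).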

Additional observations from a re-analysis of the deposited data

Results flagged for a closer look

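In 2 members the ratio of ΔOGT-ISS over WT pointed opposite ways at the 2 IL-2 times, with both counting intervals off 1 and at least 1 log2 unit between the ratios. The PFKFB4 ratio was 1.60 at 48 h (95% counting interval 1.38 to 1.84) and 0.622 at 24 h (interval 0.405 to 0.947), which differ by 1.32 on the log2 scale. For BNIP3L it was 0.692 at 48 h (interval 0.637 to 0.751) and 1.47 at 24 h (interval 1.28 to 1.69), a log2 gap of -1.08 in 48 h minus 24 h. Each ratio compares single libraries, and the difference between times was not tested, since a model with that term has no residual degree of freedom. In all, 9 members had ratios on opposite sides of 1 with both intervals off 1, the others being HK1, GPI, PFKM, TPI1, ENO1, LDHA and PDK1. The intervals cover counting error only, and the same count was not made over all genes. By sign alone, the line difference turned between times in 20 of the 37 tested members and in 7554 of all 17492 genes tested.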

How the results depend on the processing

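Calls between the IL-2 times numbered 14 to 22 under the alternatives fitted to all 4 libraries. Those settings called 11.2% (no filter) to 29.7% (thinned 24 h libraries) of all genes in either direction. The calls of PFKFB4, MXI1, P4HA1, BNIP3L, FAM162A, PDK1, KDM3A and SLC2A3 held under all 15 alternatives, while that of EGLN1 was lost in 11 and that of NDRG1 in 6. Those of PFKFB3, LDHA, LDHB and DDIT4 were lost in 4 each, and that of ALDOC in 2. Fits that left out a library used only the term compared, so that a line difference there also holds part of the time difference. They gave 10 to 15 time calls, 9 to 13 higher and 0 to 2 lower at 48 h, a median time difference of 0.26 to 0.52 and a median line difference of -0.42 to 0.11. No line call was made in the main test, against 3 (1 higher, 2 lower in ΔOGT-ISS) without the filter, 4 (2 higher, 2 lower) by DESeq2 and 4 (2 higher, 2 lower) by limma on log2(FPKM + 0.1) without a filter. Over all genes these settings called 0.463%, 1.25%, 1.73% and 2.53% in the same order. Without the filter the median time difference was 0.26, and limma on log2(FPKM + 0.1) made 1 call lower at 48 h. The cause was not tested.

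Signs turned mostly for small differences. For time these were PFKP (-0.20 without the filter, 0 with library size alone and in each of the 3 limma fits), PKM (-0.02) and BNIP3 (-0.10) without the filter, and GAPDH (0.42) and PFKL (0.21) with GC and length offsets. For line they were LDHA (-0.02 without the filter, -0.06 with line alone, -0.05 without the local median), PDK1 (-0.09 with line alone, -0.04 without the local median) and PKM (0.02 without the local median). Leaving out a library gave line differences of -1.21 to 3.52 for MXI1, -2.05 to 0.33 for NDRG1, -0.95 to 0.33 for HIF1A, -0.40 to 0.09 for VHL, -0.64 to 0.07 for EGLN1, -1.09 to 0.33 for HK2, -0.53 to 0.62 for LDHA, -0.89 to 1.12 for PDK1 and -0.03 to 0.22 for GAPDH. Time differences there were -0.13 to 0.26 for BNIP3, -0.56 to 0.45 for PFKP and -0.18 to 0.47 for PKM. The terms for line and time already compare the times within each line and the lines within each time, and the labels give no replicate numbers for a further block. With 24 h libraries thinned to 10889986 counts, 21 time calls were made, where 29.7% of all genes were called in either direction.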
